A study of Mus musculus with 6 samples.

Results

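The genes described here are those of the cytosolic ribosomal proteins of the mouse tongue. They were chosen by gene symbol: Rpl or Rps with a number, allowing a paralog or pseudogene suffix, together with Rplp0, Rplp1, Rplp2 and Rpsa, and without the S6 kinases. This took 85 of the 21368 gene symbols on the array, read by 173 of 55681 non-control probes. Of the 85, 42 were of the large subunit, 30 of the small subunit, 3 of the stalk, 8 of paralogs and 2 of pseudogenes. These classes follow the gene symbol alone. The 75 large, small and stalk genes are called conventional below. Of the 173 probes, 167 were well above background on all 6 arrays and none had a saturated spot, and 168 probes for 83 genes were tested.

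RNA from tongue tissue of 6 C57Bl6 mice was measured on single-colour Agilent arrays, 1 array per mouse. All 6 mice were of 1 genotype, iDek, in which doxycycline (DOX) switches on the chromatin protein Dek; the labels call the induction both ubiquitous and specific to squamous cells and name no promoter. There were 3 untreated mice (no DOX) and 3 mice given DOX for 2 weeks. Ages are not in the labels. Mice without the transgene that received DOX were not analysed here, so DOX and Dek induction cannot be told apart. The series title speaks of a carcinogen, and the sample labels name none.

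The cytosolic ribosome is made of a large subunit, which forms peptide bonds, and a small subunit, which reads the mRNA. Each combines ribosomal RNA with proteins, most of them needed in equal numbers. In vertebrates the mRNAs of these proteins begin with a C followed by a run of pyrimidines, the 5′ terminal oligopyrimidine (TOP) tract, through which the kinase mTOR and the RNA-binding protein Larp1 control their translation and stability. Ribosomal RNA is made by RNA polymerase I and assembled with the proteins in the nucleolus by a separate set of biogenesis factors, many of which are targets of Myc.

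Start regions were taken from the RefSeq table of assembly GRCm38.p6, which matched 63 of the member genes, 55 of them conventional. The windows below show where a TOP-like run does and does not lie in genes with a place in the results. Each window is on the strand of the gene and runs from 45 bases before the annotated transcription start to 25 bases after it; capitals mark a C followed by at least 4 C or T whose first C lies within 10 bases of the start. Rps6 (chr4:86857343-86857412, minus strand), Rps27 (chr3:90213624-90213693, minus strand) and Rps21 (chr2:180257334-180257403, plus strand) had the run at the first transcribed base. Rpl13a (chr7:45128721-45128790, minus strand) and Rpl22l1 (chr3:28805463-28805532, plus strand) had it a few bases downstream. Rps13 (chr7:116334166-116334235, minus strand) and Rpl7l1 (chr17:46782632-46782701, minus strand) had none within that distance.
Rps6: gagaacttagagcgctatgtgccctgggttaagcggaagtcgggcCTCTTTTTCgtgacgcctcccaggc
Rps27: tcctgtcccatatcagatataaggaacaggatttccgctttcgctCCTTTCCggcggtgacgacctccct
Rps21: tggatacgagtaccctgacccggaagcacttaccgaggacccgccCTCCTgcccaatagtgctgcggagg
Rpl13a: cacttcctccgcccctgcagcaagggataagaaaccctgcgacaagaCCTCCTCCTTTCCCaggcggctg
Rpl22l1: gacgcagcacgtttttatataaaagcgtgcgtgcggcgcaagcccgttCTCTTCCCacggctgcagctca
Rps13: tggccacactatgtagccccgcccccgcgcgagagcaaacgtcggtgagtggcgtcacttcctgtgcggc
Rpl7l1: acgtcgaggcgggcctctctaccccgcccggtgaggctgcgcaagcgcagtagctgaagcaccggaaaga

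Among the conventional genes, 31 of 55 (56.4%) held such a run, against 30.8% of the 27025 genes of the promoter table and 10 of 39 ribosome biogenesis genes (25.6%). A C at the annotated first base itself was found in 34.5% of the conventional genes and in 16.2% of all genes. From 250 bases before to 50 bases after the start, searched on both strands, the ETS factor core CCGGAA was in 49.1% of the conventional genes against 15.2% of all, and the GC box GGGCGG in 58.2% against 35.9%. The Myc E-box CACGTG was in 9.09% against 7.24%, and in 25.6% of the biogenesis genes. The YY1 core AAGATGGC was in 7.27% against 2.88%, and the TATA box TATAAA, searched on the strand of the gene alone, in 9.09% against 8.88%. None of these motifs contains another, and a match describes the letters of the window only.

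**Figure D1:**
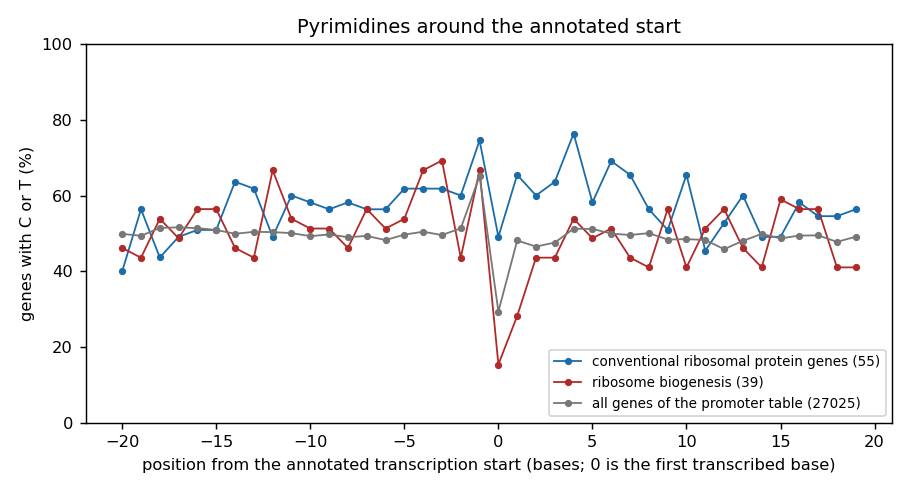
Share of genes (%) with C or T at each position around the annotated transcription start, for 55 conventional ribosomal protein genes, 39 ribosome biogenesis genes and all 27025 genes of the promoter table. The line of the ribosomal protein genes lies above that of all genes at most positions shown from 10 bases before to 10 bases after the start, and the start base itself is most often a purine in all genes and in the biogenesis genes.

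Over the 26256 features tested (genes and probes without a symbol), limma's adjusted p was under 0.05 for 106, with 73 higher and 33 lower in DOX mice. Between 56.0% and 58.3% of probes per array were well above background, and correlations between 2 arrays lay between 0.980 and 0.990. Dek, read by 1 probe of unknown position in the transcript, was at a normalised log2 signal of 2.30, 2.10 and 2.20 without DOX and 2.41, 2.41 and 2.27 with DOX, and did not pass (log2 difference 0.17 ± 0.11, SE, adjusted p = 0.456). All 8 skeletal muscle markers and all 5 suprabasal keratinocyte markers, including Acta1 and Krt13, were well above background on all 6 arrays, as tongue would have. Of the 3 liver markers only Apoa2 was tested. It too was well above background on all 6 arrays, with means of 2.05 without DOX and 2.01 with DOX. Of 8 gland markers 6 were tested and 5 had higher means with DOX. All 6 had groups apart, against 25.4% of all features, and none passed. The median log2 difference of the 6 was 2.76, from -0.76 for Dcpp1, the 1 with a lower mean, to 6.51 for Bpifa2. Summed over the 6, relative to the 75th percentile of each array, the signal was 404.5, 195.6 and 439.1 without DOX. With DOX it was 731, 1218 and 698. Dcpp1 was the brightest of the 6 in no DOX replicates 1 and 2, at 8.26 and 7.52, and so weighs most in those sums. Of the 3 tested T cell markers, Cd8a was lower with DOX (adjusted p = 0.0241), with signal clearly over background in 3 untreated and 0 DOX mice. It thus entered the test through the untreated group alone, and the size of its difference was not measured. Cd3g, at -0.39 (adjusted p = 0.433), and Cd3e, at -0.04 (adjusted p = 0.868), did not pass. Of the 5 basal keratinocyte markers, Col17a1 (-0.47), Krt15 (-0.46) and Trp63 (-0.15) had all DOX values lower, against 12.6% of all features. Krt14 (0.43) and Krt5 (0.06) had higher means with overlapping groups, and none of the 5 passed. In bulk tissue, fewer cells of a type and less RNA per cell cannot be told apart, and the part of these shifts in the ribosomal protein values was not tested.

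No ribosomal protein gene passed the test in either direction: 0 of 83 rose and 0 of 83 fell, where 0.404% of all features were called. At an unadjusted p under 0.05 there were 2 of 83, against 18.6% of all features. The smallest adjusted p among the 83 was 0.158. The median log2 difference, DOX minus no DOX, was -0.0075 over the 83 genes and -0.0079 over the 75 conventional ones, and -0.0060 over all features. The differences of the members covered a narrow range: the middle 50% of the conventional genes spanned -0.05 to 0.03 and that of all features -0.19 to 0.17. The median SE was 0.12 for the conventional genes and 0.15 for all features. Signal level was not matched in this or the later comparisons with all features. In all, 65 of the 75 conventional genes differed by less than 0.1, with 31 higher and 44 lower means. Leaving out no DOX replicate 1 turned the 31 into 11, and no DOX replicate 3 into 61. With DOX replicate 2 left out it was 55, with DOX replicate 3 left out 20, and 0 genes passed in each of these.

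The 95% interval of a conventional gene had a median half-width of 0.29 on the log2 scale, a factor of 1.22. For 73 of the 75 the whole interval lay within 1.5-fold either way. In simulated data the fit called 0% of planted log2 changes of 0.5 and 50% of those of 1. Changes of 0.5 could thus be missed by the threshold, here and in the lists below.

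**Figure D2:**
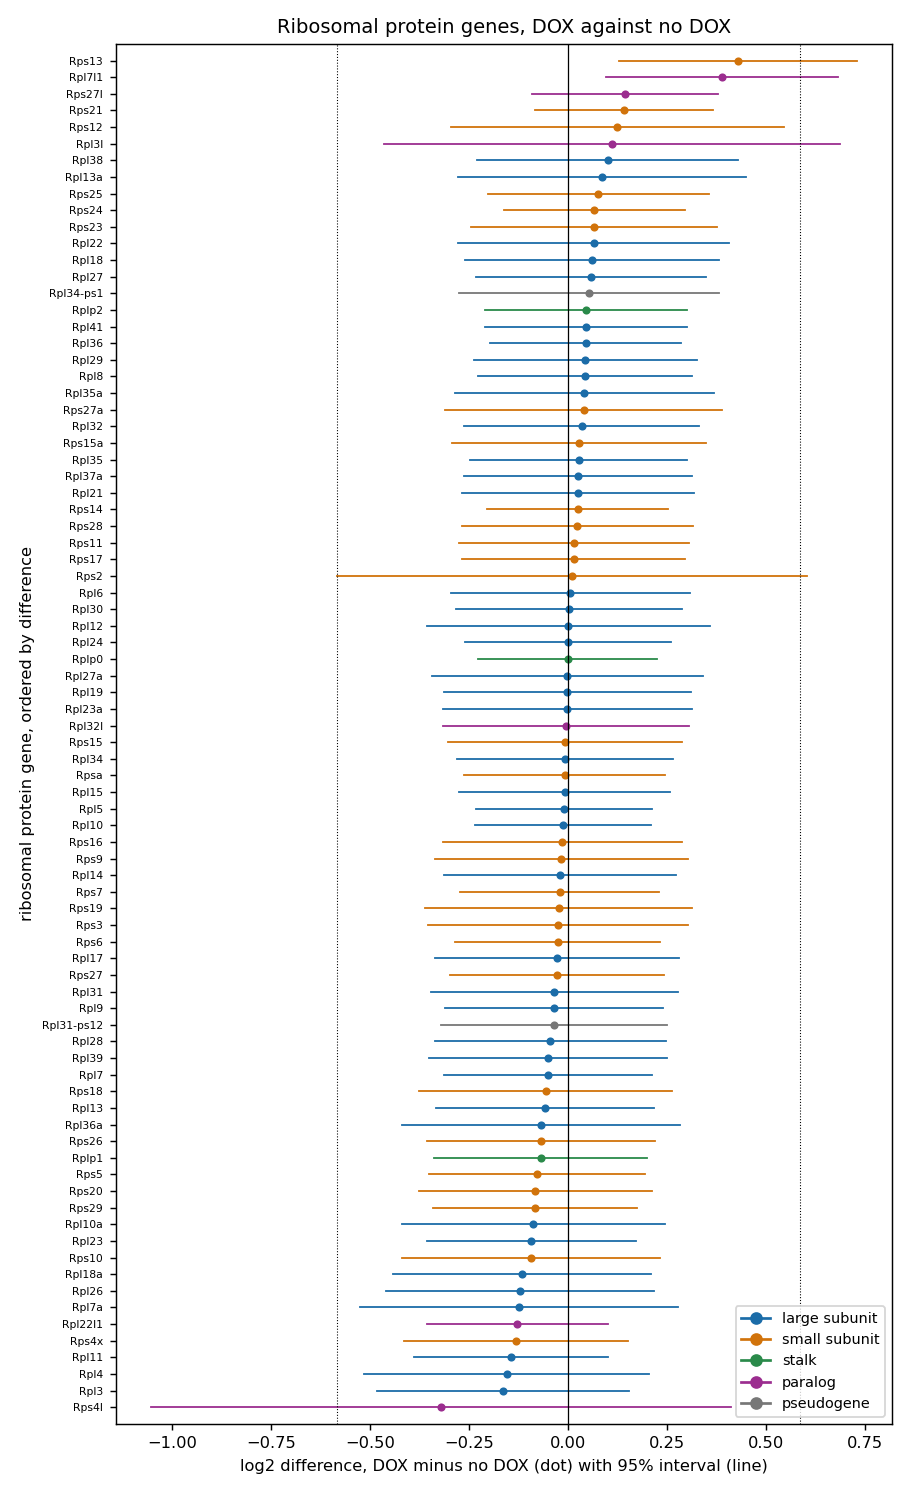
Log2 difference (DOX minus no DOX, n = 3 and 3) of 82 of the 83 tested ribosomal protein genes with its 95% interval, ordered by the difference and coloured by class; dotted lines mark 1.5-fold. Most dots sit within 0.1 of 0; Rps13 and the paralog Rpl7l1 are at the top with intervals above 0, and the paralog Rps4l is at the bottom with the widest interval.

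The large subunit genes ranged from -0.16 for Rpl3 to 0.10, with a median of -0.0053 over 42. Rpl3, a protein close to the peptidyl transferase centre, was at 7.16, 7.19 and 7.44 without DOX and 7.17, 6.93 and 7.20 with DOX. The groups overlapped and the difference of -0.16 ± 0.13 (SE) did not pass (adjusted p = 0.557). Rpl5 and Rpl11 form with 5S rRNA a particle that also binds the p53 regulator Mdm2. Rpl5 was at 6.13, 6.09 and 6.09 without DOX and 6.09, 6.04 and 6.14 with DOX, a difference of -0.01 with a 95% interval of the fold from 0.851 to 1.16. Rpl11 was at 8.80, 8.90 and 8.95 without DOX and 8.76, 8.80 and 8.66 with DOX. Its difference was -0.15 ± 0.10 (SE, adjusted p = 0.493), with overlapping groups, and the other 2 Rpl11 probes gave 0.03 and -0.01. Rpl5 values thus spanned less than 0.1 over all 6 mice, and no Rpl11 probe passed.

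Other large subunit genes showed the same closeness of the groups. Rpl10, a late-joining protein of the large subunit, was at 8.956, 8.973 and 9.024 without DOX and 8.984, 8.928 and 8.999 with DOX (difference -0.01). Rpl13a, which also has a role in translational silencing in the interferon response, was more spread, at 7.27, 7.58 and 7.76 without DOX and 7.66, 7.49 and 7.71 with DOX (difference 0.085 ± 0.15, SE). In Rpl13a the lowest and the highest value were both from untreated mice. Rpl7 was at a difference of -0.05, Rpl22 at 0.06 and Rpl39 at -0.05, each with overlapping groups and an adjusted p above that of Rpl13a. Rpl22 binds structured RNAs and Rpl39 lines the exit tunnel of the nascent chain.

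The stalk recruits elongation factors to the large subunit. Rplp0, its base and a common reference gene in expression assays, was at 9.39, 9.46 and 9.37 without DOX and 9.38, 9.37 and 9.46 with DOX. On the probe that stood for it both groups covered nearly the same range, and the 95% interval of its fold ran from 0.853 to 1.17. The 3 Rplp0 probes gave differences from -0.19 to 0.03. Rplp1 was at -0.07 ± 0.11 (SE) and Rplp2 at 0.04 ± 0.11 (SE), and neither passed (adjusted p = 0.794 and 0.868).

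The small subunit genes ranged from -0.13 for Rps4x to 0.43 for Rps13, with a median of -0.01 over 30. Rps6, the substrate of the S6 kinases, was at 7.62, 7.67 and 7.83 without DOX and 7.70, 7.59 and 7.75 with DOX (difference -0.03 ± 0.11, SE, adjusted p = 0.926). The groups overlapped over most of their range. Rpsa, also known as a laminin receptor, was at -0.0089, Rps3, at the mRNA entry, at -0.03, Rps19, mutated in Diamond-Blackfan anaemia, at -0.02, Rps27 at -0.03 and Rps27a, made as a fusion with ubiquitin, at 0.04. All of these groups overlapped. Rps4x was at 6.86, 6.91 and 7.14 without DOX and 6.87, 6.75 and 6.90 with DOX, with overlapping groups and an adjusted p of 0.605. Rps2, named after its values were seen, had the least even values of the conventional genes, at 7.93, 7.54 and 8.20 without DOX and 8.17, 8.07 and 7.45 with DOX. A single low mouse in each group, no DOX replicate 2 and DOX replicate 3, set its wide interval, from 0.667 to 1.52-fold.

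Groups without overlap were found for 4 of the 83 genes (4.82%), 3 higher and 1 lower with DOX, against 12.7% and 12.6% of all features, 25.4% together. The higher count became 9 when no DOX replicate 3 was left out. The lower count became 12 when no DOX replicate 1 was left out, and 2 when any 1 of the other arrays except DOX replicate 1 was. With 1 array fewer, 8360 to 10481 of all features had groups apart, against 6656 with all 6. Rps13, a small subunit protein at the bridge to the large subunit, was at 7.33, 7.45 and 7.69 without DOX and 7.96, 7.85 and 7.94 with DOX on the probe that stood for it, A_55_P2146749. All 3 DOX values lay above all 3 without DOX, with a difference of 0.43 ± 0.13 (SE) that did not pass (limma adjusted p = 0.158, exact two-sided permutation p = 0.1, the smallest that 3 against 3 can give). The other Rps13 probe, A_55_P1963084, was at 7.32, 7.49 and 7.65 without DOX and 7.70, 7.47 and 7.65 with DOX. On that probe the groups overlapped and the difference was 0.12 ± 0.13 (SE), so the 2 probes of the gene were unequal in size of difference. Rps21 was at 5.853, 5.876 and 5.790 without DOX and 6.013, 5.933 and 5.995 with DOX (difference 0.14, adjusted p = 0.471).

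The paralogs are gene copies, and the products of some can replace the main protein or act outside the ribosome. Rpl7l1, a relative of Rpl7 with a role in ribosome assembly, was at -0.90, -0.78 and -0.76 without DOX and -0.27, -0.60 and -0.41 with DOX. The groups lay apart, with a difference of 0.39 ± 0.12 (SE) that did not pass (limma adjusted p = 0.177). Rpl22l1, which can stand in for Rpl22, was at 6.38, 6.42 and 6.39 without DOX and 6.23, 6.22 and 6.35 with DOX. It was the 1 gene with all DOX values lower, by -0.13 ± 0.10 (SE, adjusted p = 0.519). Rps27l, a p53 target, was at 5.75, 5.74 and 5.85 without DOX and 5.85, 5.95 and 5.96 with DOX (difference 0.14, adjusted p = 0.485). Its groups met at the highest untreated and the lowest DOX value.

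Rpl3l, which replaces Rpl3 in striated muscle, was well above background in every tongue and had wide groups, at 4.76, 5.16 and 4.36 without DOX and 4.93, 5.12 and 4.56 with DOX (difference 0.11 ± 0.24, SE). Rps4l was at 1.46, 0.76 and 0.19 without DOX and 0.43, 0.38 and 0.63 with DOX. Its difference of -0.32 ± 0.31 (SE, adjusted p = 0.629) was the lowest of the 83, and the untreated mice alone covered the whole range. Rpl32l was at -0.0059. Neither probe of Rpl10l, a testis copy of Rpl10, was well above background in any mouse, and Rpl39l, also a testis gene, was so on 2 of 3 arrays in each group, so these genes were not tested. The pseudogene symbols Rpl34-ps1 and Rpl31-ps12 were at 0.05 and -0.04, with overlapping groups. The gene table lists 318 ribosomal protein pseudogenes, and how much a probe reads of such copies was not tested.

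Changes of a paralog and its main gene were compared within each array for the 5 of 7 pairs with both genes tested. Rpl7l1 minus Rpl7 was 0.44 higher with DOX and Rps27l minus Rps27 0.17 higher, both with groups apart and an exact two-sided permutation p of 0.1 (0.25 adjusted over the 5 pairs). Rpl22l1 minus Rpl22 was at -0.19 (exact p = 0.3, adjusted 0.5). Rpl3l minus Rpl3 was at 0.27 (exact p = 0.6) and Rps4l minus Rps4x at -0.19 (exact p = 0.7), both adjusted to 0.7. No pair differed past the threshold, which this design cannot reach.

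Several probes read most of the genes, and they did not always give 1 answer. Of 51 genes with more than 1 tested probe, 25 had probes of opposite sign, with a median gap between the probes of 0.07. Over all 168 tested probes, 7 had groups apart (4.17%), against 25.5% of all tested probes. Besides the 4 above these were second probes of Rpl22 (-0.27), Rpl30 (0.29) and Rps25 (0.39), named after their values were seen, whose brighter probes gave 0.06, 0.0020 and 0.075.

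**Figure D3:**
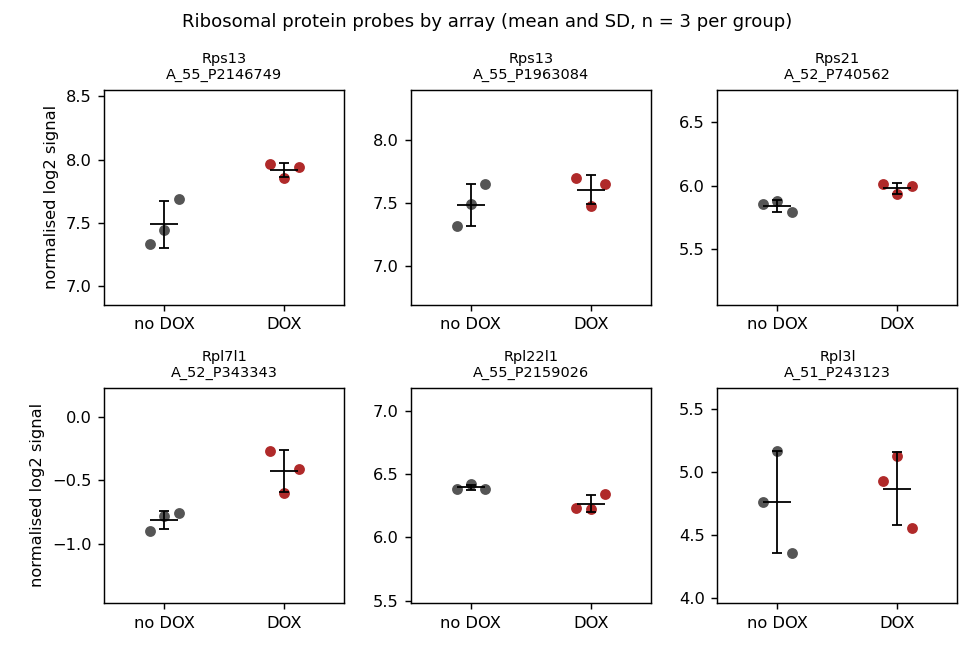
Normalised log2 signal by array (dots, with mean and SD, n = 3 per group) for 6 ribosomal protein probes chosen after their values were seen; every panel covers the same span of log2 units. The DOX values lie above the untreated ones for Rps13 on A_55_P2146749, Rps21 and Rpl7l1 and below for Rpl22l1, while the other Rps13 probe and Rpl3l overlap.

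The conventional genes deviated together from array to array, by more than the groups differed. Taken from each gene's own mean, the median of the 75 genes was at -0.13, -0.02 and 0.16 in no DOX replicates 1 to 3 and at 0.01, -0.09 and 0.07 in DOX replicates 1 to 3. The numbers of genes above their own mean were 4, 26 and 70 without DOX and 46, 5 and 69 with DOX. The highest and the lowest array were thus both untreated, and large and small subunit genes followed the same course, at 0.17 and 0.17 in no DOX replicate 3 and -0.13 and -0.13 in no DOX replicate 1. Of the 75 genes, 66 had their highest value in no DOX replicate 3, against 20.2% of all features. A further count found 49 lowest in no DOX replicate 1, against 19.4%, and 43 with both, against 3.97%.

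This common course made up most of the spread within the groups. The median SD of a conventional gene was 0.16 without DOX and 0.09 with DOX, and after the median of the 75 genes was taken from each array it was 0.05 and 0.04. That centring was chosen after the data were seen. With it, groups were apart for 15 of 83 genes, 7 higher and 8 lower, against 21.8% of all features, and still none passed. Rpl3, at -0.16, and Rps4x, at -0.12, then had all DOX values below the others, and Rps13, at 0.44, kept all of them above. Rpl7l1 also kept its groups apart, while those of Rps21 and Rpl22l1 then overlapped. Which genes had groups apart therefore depended on how the arrays were scaled.

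The array order of the ribosomal protein median was also that of the summed signal of the suprabasal keratinocyte markers, which was 925, 1086 and 1234 without DOX and 1127, 1007 and 1193 with DOX. Among 12 marker lists this one was picked after all had been seen, and the mean log2 level of the same markers gave a slightly different order. Its part in the ribosomal protein values was not tested. The 6 arrays share 1 slide and 1 scan. All untreated mice and DOX replicate 1 were in its first row, and the remaining DOX mice in its second. Within the first row alone, 1 DOX mouse against the untreated ones, the conventional median was at 0.0018, Rps13 at 0.47 and Rpl7l1 at 0.55.

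**Figure D4:**
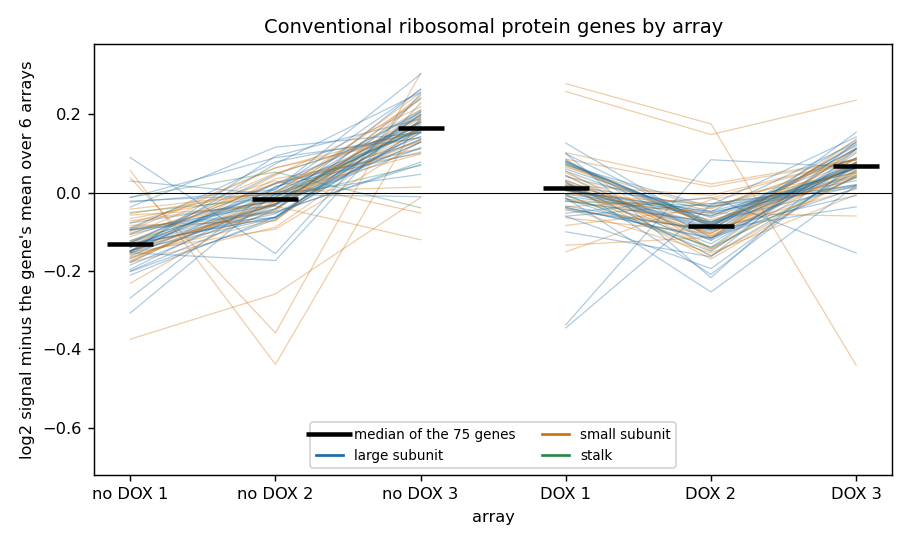
Log2 signal of each of the 75 conventional ribosomal protein genes minus its mean over the 6 arrays, 1 line per gene within each group, with the median as a black bar. The bars lie between -0.13 (no DOX replicate 1) and 0.16 (no DOX replicate 3), and the DOX bars fall between these 2.

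The other genes of the pathway were counted in 4 lists. The 5 ribosomal proteins whose symbols the rule does not take were all tested, and 0 passed. Rpl36al, a near copy of Rpl36a, was at 5.464, 6.039 and 5.999 without DOX and 6.379, 6.202 and 6.422 with DOX (difference 0.50 ± 0.18, SE, adjusted p = 0.213), with groups apart. Fau, made as a fusion with a ubiquitin-like protein, was at 0.15 and Rps3a1 at -0.05.

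Translation factors and other genes with TOP mRNAs had a median of -0.03 over 21 tested of 22, and 0 passed. Eef2, the translocation factor, was at 6.98, 7.04 and 7.05 without DOX and 6.66, 6.75 and 6.79 with DOX (difference -0.29 ± 0.10, SE, adjusted p = 0.194), with groups apart. Hnrnpa1, an RNA-binding protein, was at -0.41 and Npm1, a nucleolar chaperone, at 0.32, also with groups apart. Within the conventional genes, those with a TOP-like run within 10 bases of the annotated start had a median of -0.0079 (31 genes). Those without one there had a median of -0.0096 (24 genes). Runs further away were not counted, and whether the annotated starts are those used in tongue was not tested.

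Regulators of ribosomal protein synthesis had a median of 0.0078 over 17 tested of 18, and 0 passed. Larp1 was at 4.47, 4.60 and 4.62 without DOX and 4.80, 4.68 and 4.82 with DOX (difference 0.21 ± 0.10, SE, adjusted p = 0.336). Eif4e, the cap-binding protein, was at 0.36 (adjusted p = 0.167) and Mxd4, which competes with Myc for Max, at -0.52 (adjusted p = 0.109), both with groups apart.

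The factors that assemble ribosomes had a median of 0.49 over 45 tested genes (middle 50% from 0.28 to 0.62). Of these, 43 had higher means with DOX, against 49.0% of all features, and 37 (82.2%) had all DOX values higher, against 12.7%. In limma 32 had an unadjusted p under 0.05, against 18.6% of all features, but 0 passed after adjustment. Dkc1, the pseudouridine synthase of box H/ACA particles, was at -0.96, -0.89 and -0.96 without DOX and -0.24, -0.39 and -0.39 with DOX (difference 0.60 ± 0.10, SE, adjusted p = 0.0732). Rrs1, needed for the large subunit, was at 0.83 ± 0.15 (SE, adjusted p = 0.082), and Nop58, a box C/D core protein, at 0.75 ± 0.14 (SE, adjusted p = 0.084). In Dkc1 every DOX mouse lay above every untreated one. With normexp background correction Pes1 and Wdr75, which act in large subunit and early small subunit assembly, passed (0.49 and 0.57, adjusted p = 0.0446 and 0.0383). The share of all features that passed with normexp is not given here, and the 0.404% above belongs to the main fit. The mean level of the list by array was 1.54, 1.69 and 1.84 without DOX and 2.34, 2.01 and 2.10 with DOX. The difference between this list and the ribosomal proteins was not tested.

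Mitochondrial ribosomal proteins, which build the separate ribosome of mitochondria, had a median of 0.15 over 77 tested genes. Of these 70 had higher means with DOX, against 49.0% of all features. All DOX values were higher for 22, against 12.7%, and lower for 1, against 12.6%, and 0 passed.

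**Figure D5:**
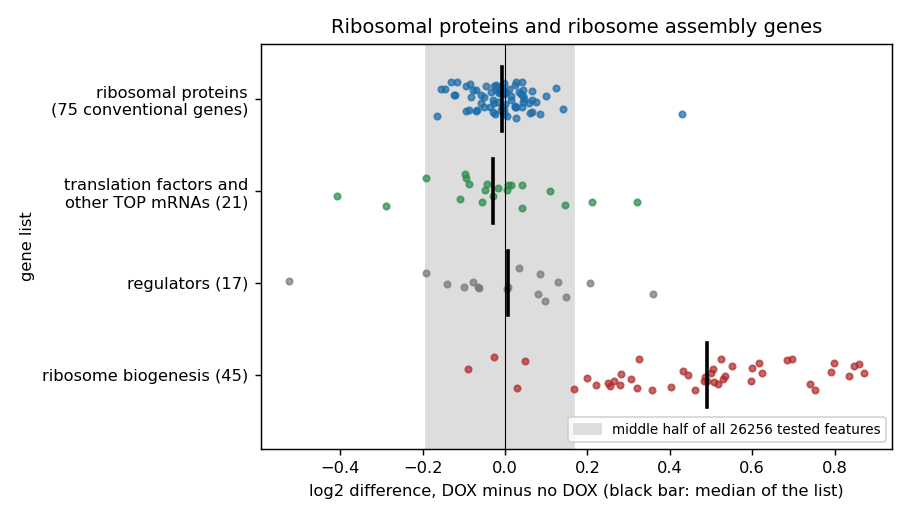
Log2 difference (DOX minus no DOX) of each tested gene, 1 dot per gene, in 4 lists, with the list median as a black bar and the middle 50% of all 26256 tested features shaded. The dots of the 75 conventional ribosomal protein genes lie inside the shaded band except Rps13, and most ribosome biogenesis dots lie to its right, with a median of 0.49.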

How the data were processed

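Per the file headers, the deposited scanner files give each spot's signal as a linear intensity from which Agilent Feature Extraction (version 11.5.1.1 in the submitters' processing notes) had subtracted background. The deposited value table is that intensity times 1 factor per array (3.70 to 3.99), made by a rule not stated in the sources. Spots marked as outliers were left out (146 to 195 per array), log2 values were averaged by probe, and each array's 75th percentile was taken off. Accessions were matched to the RefSeq table of GRCm38.p6, which named 28331 of 55681 probes. Probe coordinates, on another build, were not used. A probe was tested if all 3 arrays of either group read it well above background (30934 probes, 26256 features). The brightest probe stood for a gene.

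The test was limma 3.58.1 under R 4.3.3 (lmFit and eBayes, two-sided, 95% intervals from the same model), Benjamini-Hochberg adjusted over all tested probes, at a threshold of 0.05. The labels describe separate mice. Single values were tested by exact permutation over the 20 assignments. Members, lists and pairs were chosen with earlier results of these data known. Genes were named if they passed, had groups apart or discordant probes, belonged to a set of 25 members, or had the 3 smallest p of another list; any others are marked, and 1 gene the rule names is not reported here. The fit was tested on simulated data, where it recovered 0% of planted log2 changes of 0.5, 50% of those of 1 and 84% of those of 2. Alternatives covered background correction, scaling, filters, variance model, weights, blocks, probe rule and each array left out. Normexp ran on the median signal, as the planned mean signal was not used here. Same-numbered mice did not deviate together (correlations -0.12, -0.0099 and 0.0055), so the numbers do not pair the samples. For the 10 members with several promoter entries the first was taken.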

Additional observations from a re-analysis of the deposited data

How the results depend on the processing

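Each result was recomputed under the alternatives: normexp, quantile, median and ribosomal-protein-median scaling, the value table, 2 filters, trend with robust variance, array weights, replicate block, slide row, mean over probes, and leaving out each array. No ribosomal protein gene passed the threshold in any of them, and the 4 genes with groups apart kept their sign in all 18 settings. The replicate block left the counts at 0 higher and 0 lower and the median of the conventional genes at -0.0079; the numbers do not pair the samples. Slide row as a block moved the biogenesis median to 0.70. The second row holds only DOX mice, so this setting compares DOX replicate 1 alone with the untreated mice.

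Counts that moved were as follows. With normexp, 2 ribosomal protein genes had all DOX values lower and 2 biogenesis genes passed. Quantile normalization gave 12 conventional genes with higher means and 13 ribosomal protein genes with all DOX values lower. Median centring gave 0 with all lower. Centring on the ribosomal protein median gave 7 higher and 8 lower, against 21.8% of all features in either direction. Leaving out 1 array gave 11 to 61 conventional genes with higher means. It gave 3 to 9 ribosomal protein genes with groups apart upward and 1 to 12 downward, against 31.8% to 39.9% of all features in either direction. The shares of all features under normexp, quantile normalization and median centring are not given here. The regulators' median was -0.029 with normexp, -0.026 with array weights and -0.039 to 0.070 when 1 array was left out. The cause was not tested.

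Values near 0 changed sign: with normexp Rpl5 (0.029) and Rps3 (0.022); with quantile normalization Rplp2 (-0.027) and Rps27a (-0.029); with centring on the ribosomal protein median Rplp0 (0.0059); with array weights Rps19 (0.023); with slide row Rpl39 (0.0024) and Rps19 (0.043). With the mean over probes, Rpsa was at 0.018, Rpl22 at -0.10 and Rps27 at 0.019. Leaving out 1 array gave ranges across 0, namely Fau -0.012 to 0.27, Rpl10 -0.029 to 0.0067, Rpl13a -0.048 to 0.20, Rpl22 -0.0060 to 0.20, Rpl39 -0.11 to 0.037, Rpl3l -0.093 to 0.31, Rpl5 -0.033 to 0.013, Rpl7 -0.10 to 0.024, Rplp0 -0.029 to 0.024, Rplp2 -0.00485 to 0.093, Rps19 -0.11 to 0.094, Rps27 -0.092 to 0.030, Rps27a -0.067 to 0.15, Rps3 -0.12 to 0.073, Rps3a1 -0.12 to 0.025, Rps4l -0.63 to 0.0065, Rps6 -0.070 to 0.033, Rpsa -0.074 to 0.046. The number of arrays limits the precision, and signals near background are the least certain.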
